A study of Homo sapiens with 4 samples.

Results

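The short arm of chromosome 12 (12p) was lower in HeyC2 cells carrying a TET1 expression plasmid than in their control, relative to the rest of the genome, and a list of 59 genes spread over this arm was followed in 4 RNA-seq libraries. The list runs from KDM5A near the telomere (chr12:389223-498486, GRCh37, minus strand) to DNM1L near the centromere (chr12:32832134-32898584, GRCh37, plus strand). All 59 symbols were found among the 26506 genes of the expression tables, and all 59 lay on 12p in the gene annotation, which placed 325 genes of the tables on this arm. The genes were chosen by their log2 change in HeyC2 TET1 against the HeyC2 control, in which the arm was low. Their values in that comparison are therefore given as a description only, and the comparison of the SKOV3 libraries is the one that shares no library with the choice.

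HeyC2 and SKOV3 are established human ovarian cancer cell lines. Each line was transfected with 3 μg of the plasmid pCMV6/TET1 or of the empty plasmid, using lipofectamine, and was then grown in 400 μg/ml Geneticin, so that the control cells carried a plasmid and the drug selection too. TET1 is an enzyme that oxidises 5-methylcytosine, a step of DNA demethylation. With 1 library per condition, 4 in all, no difference given here has a replicate check, no test within a line was possible, and no p-value is given. A fit over both lines, with line and plasmid as terms, was not run.

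The short arm of chromosome 12 is a region that cancers gain and lose. An isochromosome made of its copies is the hallmark of testicular germ cell tumours, and the stretch holding ETV6 and the cell cycle inhibitor CDKN1B is deleted in some leukaemias. The glycolytic genes GAPDH and TPI1 are also on this arm. The level of many transcripts follows the number of copies of their gene, while others are held by regulators of their own, and DNA copy number was not analysed here.

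Promoter sequences are shown for some of the genes, because TET1 acts on methylated CpG sites and because 3 pairs of the listed genes share a promoter window. Of KDM5A, PHB2 and RECQL, only the part inside the window of the paired gene is shown. The sequences are those of RefSeq (GRCh38.p14), 250 bases before to 50 bases after the start, 5′ to 3′ on the strand of the named gene, with each CpG in capitals. Shown are the window that CCDC77 shares with KDM5A over 126 bases (chr12:389097-389396, plus strand), the window that EMG1 shares with PHB2 over 259 bases (chr12:6970663-6970962, plus strand), and the window that GOLT1B shares with RECQL over 253 bases (chr12:21501539-21501838, plus strand). DUSP16 (chr12:12562814-12563113, minus strand) is shown as the lowest listed gene in HeyC2 TET1. EMP1 (chr12:13196476-13196775, plus strand) and CD9 (chr12:6199696-6199995, plus strand) are shown as the lowest and the highest in SKOV3 TET1.
CCDC77: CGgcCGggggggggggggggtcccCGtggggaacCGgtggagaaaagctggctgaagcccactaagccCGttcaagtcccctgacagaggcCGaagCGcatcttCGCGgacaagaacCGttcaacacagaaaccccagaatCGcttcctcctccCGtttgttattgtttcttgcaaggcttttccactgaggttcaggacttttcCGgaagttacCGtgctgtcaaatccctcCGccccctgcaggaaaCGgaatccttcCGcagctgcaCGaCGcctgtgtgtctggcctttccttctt
EMG1: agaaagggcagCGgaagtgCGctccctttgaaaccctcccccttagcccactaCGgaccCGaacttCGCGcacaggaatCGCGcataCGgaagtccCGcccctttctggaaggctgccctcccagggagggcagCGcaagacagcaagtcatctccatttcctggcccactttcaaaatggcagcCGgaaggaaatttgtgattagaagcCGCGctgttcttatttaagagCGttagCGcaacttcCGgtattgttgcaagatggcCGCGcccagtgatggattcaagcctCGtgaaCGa
GOLT1B: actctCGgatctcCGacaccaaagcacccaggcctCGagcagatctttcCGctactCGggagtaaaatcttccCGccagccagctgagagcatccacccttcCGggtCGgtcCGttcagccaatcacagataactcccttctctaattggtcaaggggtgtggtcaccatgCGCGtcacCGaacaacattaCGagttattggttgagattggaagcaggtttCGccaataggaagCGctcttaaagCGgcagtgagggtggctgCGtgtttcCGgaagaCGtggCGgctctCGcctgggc
DUSP16: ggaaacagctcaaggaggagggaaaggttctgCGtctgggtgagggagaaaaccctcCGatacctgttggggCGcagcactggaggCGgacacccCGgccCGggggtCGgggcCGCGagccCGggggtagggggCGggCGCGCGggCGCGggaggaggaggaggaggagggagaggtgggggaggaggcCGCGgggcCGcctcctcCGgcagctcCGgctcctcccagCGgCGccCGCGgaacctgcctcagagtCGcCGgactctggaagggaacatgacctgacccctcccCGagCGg
EMP1: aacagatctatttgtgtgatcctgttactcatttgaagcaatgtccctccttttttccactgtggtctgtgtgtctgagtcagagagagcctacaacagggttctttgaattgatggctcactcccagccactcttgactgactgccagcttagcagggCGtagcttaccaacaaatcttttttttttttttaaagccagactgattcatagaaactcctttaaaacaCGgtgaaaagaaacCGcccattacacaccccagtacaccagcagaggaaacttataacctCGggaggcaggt
CD9: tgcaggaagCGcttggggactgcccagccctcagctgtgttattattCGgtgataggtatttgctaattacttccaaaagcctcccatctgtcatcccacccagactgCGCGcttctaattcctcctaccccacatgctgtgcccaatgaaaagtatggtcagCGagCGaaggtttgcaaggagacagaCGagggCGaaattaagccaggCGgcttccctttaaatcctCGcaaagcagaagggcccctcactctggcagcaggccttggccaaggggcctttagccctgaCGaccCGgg
The DUSP16 window held 29 CpG and the CD9 window 12, while the EMP1 window held 4.

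Of the 59 genes, 50 had a promoter in the RefSeq table. Their windows held a median of 22 CpG, against 26 for genes expressed in HeyC2 and 13 for all promoters of the table. Of these windows, 40 (80.0%) had an observed-to-expected CpG ratio of at least 0.6, which is among the usual marks of a CpG island. Among the 10106 promoters of genes expressed in HeyC2 the share was 83.2%, and among all 27305 promoters of the table it was 48.8%. By this ratio the listed promoters were close to those of other expressed genes. Their median GC content was 59.2%, against 65.3% for expressed genes and 58.3% for all promoters. The 10 windows under this ratio were those of TNFRSF1A (0.17), PEX5 (0.24), EMP1 (0.27), NINJ2 (0.31), MGST1 (0.34), MAGOHB (0.44), RAD52 (0.47), CD9 (0.53), DNM1L (0.57) and MLF2 (0.59). The GC box GGGCGG was read on both strands in 66.0% of the listed promoters, against 70.2% for expressed genes and 44.5% for all. CCAAT was in 34.0% of the listed promoters, against 37.1% for expressed genes and 35.7% for all, and TATAAA in 10%, against 5.46% and 12%. A match of such letters is a description and not a bound site, and these promoters were not assayed for methylation in the tables used here.

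The libraries were estimated to hold between 6880000 and 7620000 fragments, read from the spacing of the smallest values, and between 15162 and 16941 genes were above 0. Values are FPKM, fragments per kilobase of transcript set against the size of the library, rescaled by the authors so that GAPDH was equal in the TET1 and control libraries of a line. GAPDH read 5417 FPKM in both HeyC2 libraries and 2248 FPKM in both SKOV3 libraries. The constants that did this were 3.23 in HeyC2 and 1.35 in SKOV3, and dividing by them left this gene at 1675 FPKM in TET1-transfected HeyC2 cells and at 1671 in SKOV3. GAPDH lies on 12p itself, so the gene used for scaling sat on the arm under study. TET1 was 0.20 FPKM in the HeyC2 control and 1.68 in HeyC2 TET1, and 0.43 and 2.42 in SKOV3, on about 14, 34, 30 and 116 fragments. The values of TET1 and of the markers below are as deposited. In the TET1 libraries they thus hold the scaling constants of 3.23 in HeyC2 and 1.35 in SKOV3, which raise them against the controls. The epithelial keratins KRT8 and KRT18 were between 193 and 1249 FPKM in all 4 libraries. In the HeyC2 control, EPCAM (0.09 FPKM) and KRT19 (0.62) were near 0 and CDH1 was listed at 0, where the SKOV3 control had 15.4, 255 and 2.24 FPKM. In SKOV3 TET1, EPCAM was 21.7, KRT19 0.62 and CDH1 8.48 FPKM. PAX8, a Müllerian marker, was between 74.6 and 630 FPKM, while WT1 and MUC16 were at or below 0.71. MSLN was 46.6 FPKM in the control and 251 with TET1 in HeyC2, and 10.3 and 0.11 in SKOV3, and SOX17 was at most 8.54 in HeyC2 and 79.4 and 56.8 in SKOV3. The mesenchymal genes VIM, CDH2 and FN1 were at or above 21.1 FPKM in every library, and the fibroblast gene COL1A1 was 0.32 FPKM without and 37.2 with the TET1 plasmid in SKOV3. The part of these marker shifts in the values of the listed genes was not tested. Leukocyte markers PTPRC, CD3E and CD79A were at or below 0.39 FPKM throughout, while LYZ reached 9.19 in HeyC2 TET1. Of the endothelial markers, PECAM1 and VWF were at or below 0.55 FPKM, but CDH5 was 18.9 FPKM in the HeyC2 control and 306 in HeyC2 TET1.

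Because of this scaling, the median of all expressed genes was above the control by 1.61 on the log2 scale in HeyC2 TET1 and by 0.59 in SKOV3 TET1, and before scaling by 0.06 and 0.19. Changes are therefore given relative to this median: the log2 ratio of FPKM plus 1, minus the median over all genes with a mean of at least 1 FPKM in the libraries compared. This pseudocount shrinks the log2 ratio of low genes before the median is subtracted. In HeyC2 TET1, where that median was 1.61, it can therefore draw the relative change of a low gene downwards. NINJ2 was at -0.08 as reported and between -0.11 and 0.81 over the settings run. As deposited, 57 of the 59 genes were higher in HeyC2 TET1 than in the control, and only DUSP16 and ITPR2 were lower. Before the scaling, 55 genes were below the control and 3 above, of the 58 that then passed the filter. A gene was counted as lower or higher when it was at least 1.5-fold away from the all-gene median.

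In HeyC2 TET1, the 59 genes stood at 0.62 of the all-gene median change, a median relative log2 change of -0.69, with quartiles of -0.94 and -0.45 and a range from -1.91 to 0.53. In all, 56 were below the all-gene median, 40 were lower by at least 1.5-fold, and 0 were higher. Over all 12993 genes compared, 12.9% were lower and 13.0% were higher. At least 2-fold lower were 13 of the 59, against 4.63% of all genes. These counts restate how the list was made. The 110 other expressed genes of the arm had a median of -0.72 with 63 lower and 3 higher, so the list described the arm and was not set apart from its neighbours. The 497 expressed genes of the long arm of the same chromosome had a median of -0.01, with 12.7% lower.

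**Figure D1:**
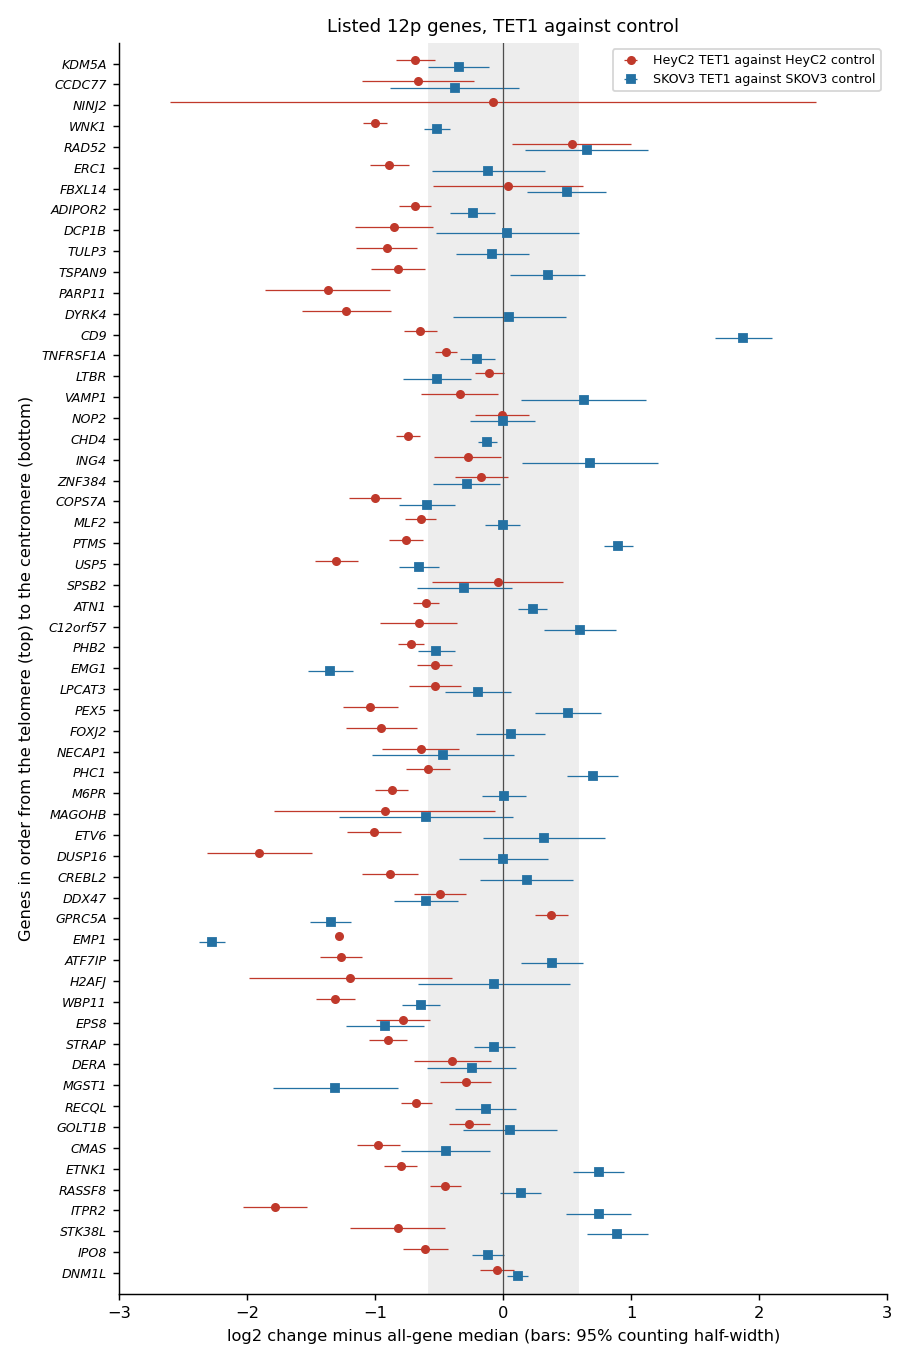
Relative log2 change (x axis, log2 change minus the all-gene median) of each listed gene in HeyC2 TET1 (circles) and SKOV3 TET1 (squares) against the control of the line, ordered from telomere to centromere; bars are the 95% counting half-width and the grey band is within 1.5-fold. NINJ2 and PARP11 have no SKOV3 value, since they were under the filter there. Of the circles, 56 of 59 lie left of 0, while the squares lie on both sides, from -2.28 for EMP1 to 1.87 for CD9.

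Values per library are given below in the order HeyC2 control, HeyC2 TET1, SKOV3 control, SKOV3 TET1, in FPKM as deposited. A half-width after a relative change is the 95% counting error of the log2 ratio without the pseudocount, from the estimated fragments alone. For low genes, whose log2 ratio the pseudocount shrinks, this half-width is not on the scale of the printed change. It holds nothing of the spread between cultures. Counts per group stand beside 12.9% of all genes lower and 13.0% higher in HeyC2 TET1, and 17.9% lower and 20.6% higher in SKOV3 TET1. The HeyC2 counts follow from the choice of the list, and differences between the groups were not tested.

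The 11 genes of chromatin and transcription had a median relative log2 change of -0.75 in HeyC2 TET1, with 9 of 11 lower, and of 0.18 in SKOV3 TET1, with 0 lower and 2 higher. ATF7IP, a partner of the histone methyltransferase SETDB1, was 17.1, 21.9, 3.72 and 8.24 FPKM. Its relative change was -1.27 (half-width 0.17) in HeyC2 and 0.38 (0.24) in SKOV3. H2AFJ, a histone H2A variant, was 16.6, 22.5, 16.0 and 23.3 FPKM. With about 20 fragments in HeyC2 TET1, its change of -1.20 there had a half-width of 0.79. ETV6, the transcriptional repressor known from leukaemia fusions, was 13.6, 21.1, 1.38 and 3.47 FPKM, so both HeyC2 libraries were above both SKOV3 libraries. CHD4, the ATPase of the NuRD complex, was 57.8, 106, 67.7 and 93.7 FPKM and was the highest of this group in both SKOV3 libraries, while ATN1 was the highest in HeyC2. Its relative change was -0.75 (0.09) in HeyC2 and -0.13 (0.07) in SKOV3. KDM5A, a demethylase of histone H3 lysine 4, was 12.3, 24.2, 4.21 and 5.15 FPKM, with -0.69 in HeyC2 and -0.35 in SKOV3. PHC1, a Polycomb repressive complex 1 subunit, was 19.8, 41.1, 8.53 and 22.2 FPKM, with -0.59 in HeyC2 and 0.70 in SKOV3. The other members were CREBL2 (-0.89 and 0.18), FOXJ2 (-0.95 and 0.06), ATN1, a corepressor (-0.60 and 0.23), ZNF384 (-0.17 and -0.29) and ING4, a reader of methylated histone H3 (-0.28 and 0.68). None of the 11 was above the all-gene median in HeyC2 TET1.

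The 7 kinases, phosphatases and signalling genes had the lowest group median in HeyC2 TET1, -1.0, with 6 of 7 lower, and had a median of 0.05 in SKOV3 TET1. DUSP16, a phosphatase of the JNK and p38 kinases, was 5.76, 4.50, 2.73 and 4.6 FPKM on about 284, 62, 130 and 152 fragments. Its relative change of -1.91 (half-width 0.41) in HeyC2 was the lowest of the list, and in SKOV3 it lay at the all-gene median (half-width 0.35). ITPR2, a calcium release channel of the endoplasmic reticulum, was 7.11, 6.18, 2.08 and 6.76 FPKM, and its change was -1.78 (0.25) in HeyC2 and 0.74 (0.25) in SKOV3. These were the listed genes whose FPKM was lower in HeyC2 TET1 even as deposited. DYRK4, a dual-specificity kinase, was 18.2, 24.0, 6.02 and 9.90 FPKM, with -1.23 (0.35) and 0.05 (0.44). STK38L, a kinase of the NDR family in Hippo signalling, was 5.03, 9.38, 6.12 and 18.9 FPKM, with -0.83 (0.37) and 0.89 (0.24). EPS8, an actin regulator downstream of growth factor receptors, was 19.9, 36.0, 9.47 and 7.28 FPKM, with -0.79 (0.21) and -0.93 (0.31), and so was lower in both lines. WNK1, a kinase that controls ion transport, had -1.0 and -0.52, and RASSF8 had -0.45 and 0.14.

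The 8 receptors and surface proteins had the widest range from lowest to highest of the groups in both lines, with a median of -0.55 in HeyC2 TET1 (4 lower) and of -0.24 in SKOV3 TET1 (2 lower and 1 higher of 7 compared). EMP1, a tetraspan membrane protein, was 890.5, 1114, 105 and 32.0 FPKM. Its relative change was -1.29 (half-width 0.03) in HeyC2 and -2.28 (0.10) in SKOV3, the lowest there. It had the highest FPKM of the list in both HeyC2 libraries. CD9, a tetraspanin, was 176, 343, 28.1 and 159 FPKM, with -0.65 (0.13) in HeyC2 and 1.87 (0.22) in SKOV3. GPRC5A, an orphan receptor induced by retinoic acid, was 19.7, 80.9, 24.2 and 13.9 FPKM, with 0.38 (0.13) and -1.35 (0.16), the reverse order of CD9. NINJ2, a small adhesion protein, was 0.58, 3.56, 0.20 and 0.00 FPKM on about 3, 5, 1 and 0 fragments, so it was not measurable at this depth and was under the filter in SKOV3. The tumour necrosis factor receptor TNFRSF1A had -0.45 and -0.20, and LTBR, the lymphotoxin beta receptor, -0.11 and -0.52. The adiponectin receptor ADIPOR2 had -0.69 and -0.24, and TSPAN9, another tetraspanin, -0.82 and 0.35.

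The 10 genes of trafficking and organelles had a median of -0.68 in HeyC2 TET1, with 7 lower, and of -0.04 in SKOV3 TET1, with 0 lower and 1 higher. PEX5, the receptor that brings enzymes into peroxisomes, was 26.4, 39.7, 9.26 and 20.9 FPKM, with -1.04 (half-width 0.21) and 0.50 (0.26). ERC1, a scaffold of vesicle docking sites, was 16.0, 27.0, 1.23 and 2.09 FPKM, with -0.89 (0.15) and -0.12 (0.44). DNM1L, the dynamin that divides mitochondria, was 32.1, 96.6, 71.2 and 116 FPKM, with -0.05 (0.13) and 0.11 (0.08), and stood at the all-gene median in both lines. IPO8, a nuclear import receptor, was 19.3, 39.7, 29.5 and 41.2 FPKM, with -0.61 (0.17) and -0.12 (0.12). M6PR, which carries enzymes to lysosomes, had -0.87 and 0.01, and TULP3, which brings receptors into cilia, -0.91 and -0.09. The mitochondrial scaffold protein PHB2 had -0.72 and -0.53, NECAP1 of clathrin-coated vesicles -0.65 and -0.47, the SNARE protein VAMP1 -0.34 and 0.63, and GOLT1B of the Golgi -0.27 and 0.05.

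The 7 genes of RNA processing and ribosome assembly had a median of -0.86 in HeyC2 TET1, with 4 lower, and of -0.60 in SKOV3 TET1, again with 4 lower. WBP11, a splicing factor, was 42.0, 51.8, 29.2 and 28.0 FPKM, with -1.31 (half-width 0.15) in HeyC2 and -0.64 (0.15) in SKOV3. EMG1, a methyltransferase of ribosomal RNA, was 34.3, 73.2, 26.6 and 15.3 FPKM, with -0.54 (0.13) and -1.35 (0.18). MAGOHB, a core protein of the exon junction complex, was 1.98, 3.78, 2.72 and 2.68 FPKM on at most about 48 fragments, and its reads may be shared with the near-identical MAGOH on 1p. NOP2, a methyltransferase of ribosomal RNA, was 21.3, 66.5, 13.8 and 21.2 FPKM, with -0.01 (0.21) and -0.01 (0.25). The decapping cofactor DCP1B had -0.86 and 0.03, the helicase DDX47 -0.50 and -0.61, and STRAP, of the SMN complex, -0.90 and -0.07.

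The 4 genes of ubiquitin and its removal had a median of -0.52 in HeyC2 TET1 and of -0.45 in SKOV3 TET1, with 2 lower in each. USP5, which takes apart free ubiquitin chains, was 51.5, 63.9, 40.03 and 38.0 FPKM, with -1.30 (half-width 0.17) and -0.66 (0.15). COPS7A, a COP9 signalosome subunit, had -1.0 and -0.59. FBXL14, an F-box protein of a ubiquitin ligase, was 2.78, 10.8, 8.42 and 19.0 FPKM, with 0.03 (0.59) and 0.49 (0.31). SPSB2, a SOCS box protein, was 9.29, 29.4, 18.2 and 22.3 FPKM, with -0.04 (0.51) and -0.30 (0.37). SPSB2 overlaps 4 genes on the other strand, among them the abundant TPI1. These meet only at their last bases, since TPI1 ends at chr12:6980112 and SPSB2 reaches down to 6980099. Whether fragments of the overlapping genes entered the SPSB2 value was not tested.

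The 5 metabolic enzymes had a median of -0.53 in HeyC2 TET1, with 2 lower, and of -0.25 in SKOV3 TET1, with 1 lower and 1 higher. MGST1, a microsomal glutathione transferase, was 90.5, 227, 23.2 and 13.6 FPKM, with -0.29 (half-width 0.20) and -1.31 (0.49). ETNK1, an ethanolamine kinase, was 28.3, 50.2, 6.39 and 17.6 FPKM, with -0.80 (0.13) and 0.74 (0.20). CMAS, which activates sialic acid, was 83.0, 129, 14.1 and 15.6 FPKM, with -0.98 (0.17) and -0.45 (0.35). All 5 enzymes were below the all-gene median in HeyC2 TET1. LPCAT3, a lysophospholipid acyltransferase, had -0.53 and -0.20, and DERA, a deoxyribose-phosphate aldolase, -0.40 and -0.25.

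The DNA repair genes diverged. RAD52, a recombination mediator, was 3.05, 16.9, 2.75 and 7.85 FPKM, and its relative change of 0.53 (half-width 0.46) in HeyC2 was the highest of the list, beside 0.65 (0.48) in SKOV3. RECQL, a DNA helicase, was 58.1, 111, 11.4 and 16.0 FPKM, with -0.68 (0.12) and -0.14 (0.24). Of the 5 other genes, PTMS, an acidic chromatin-associated protein, was 188, 340.1, 137 and 385 FPKM, with -0.76 (0.13) and 0.90 (0.11). PARP11, an ADP-ribosyltransferase, was 4.38, 5.34, 0.70 and 0.71 FPKM, with -1.37 (0.49) in HeyC2, and was under the filter in SKOV3. CCDC77 had -0.67 and -0.38, MLF2 -0.65 in HeyC2 beside a value at the all-gene median in SKOV3, and C12orf57 -0.66 and 0.60.

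In SKOV3 TET1, a comparison that did not choose the list, the 57 genes compared had a median relative log2 change of -0.08, with 10 lower and 10 higher. Each count is 17.5% of the list, beside 17.9% of all genes that were lower and 20.6% that were higher. The lowest were EMP1, GPRC5A, EMG1, MGST1 and EPS8, and the highest were CD9, PTMS, STK38L, ITPR2 and ETNK1. Among those 5 lowest, GPRC5A was above the all-gene median in HeyC2 TET1 and the others were below it. All 5 of the highest were below it in HeyC2 TET1. At least 1.5-fold lower in HeyC2 and at least 1.5-fold higher in SKOV3 were 7 of the 57 (12.3%), beside 2.31% of all 11888 genes compared in both lines. The HeyC2 side of that count restates the choice, and the SKOV3 side has the share of higher genes given above. Over the 57 genes, the changes in the lines had a Spearman rank correlation of 0.01, given as a description of genes that share libraries.

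The change in HeyC2 minus the change in SKOV3, centred on its median over all genes, had a median of -0.65 over the 57 genes, with 30 lower and 4 higher by at least 1.5-fold. Over all 11888 genes compared in both lines, 23.1% were lower and 21.6% were higher. The other 12p genes had a median difference of -0.77 and the 12q genes of -0.08. The difference used the HeyC2 values that chose the list, and it was not tested, since each line has 1 library per condition.

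The control lines differed at this arm before any TET1 plasmid. In the HeyC2 control, 48 of the 58 genes compared were at least 1.5-fold higher than in the SKOV3 control and 3 were lower, relative to the all-gene median, where 29.0% of all genes were higher and 28.6% were lower. The median over the list was 1.3, or 2.47-fold, with a range from -1.05 to 3.34. The HeyC2 control library is the one against which HeyC2 TET1 was set, so these values and the low values in HeyC2 TET1 share a library. The other 101 expressed 12p genes had a median of 0.57, with 50 higher and 20 lower, and the 12q genes had -0.11.

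**Figure D2:**
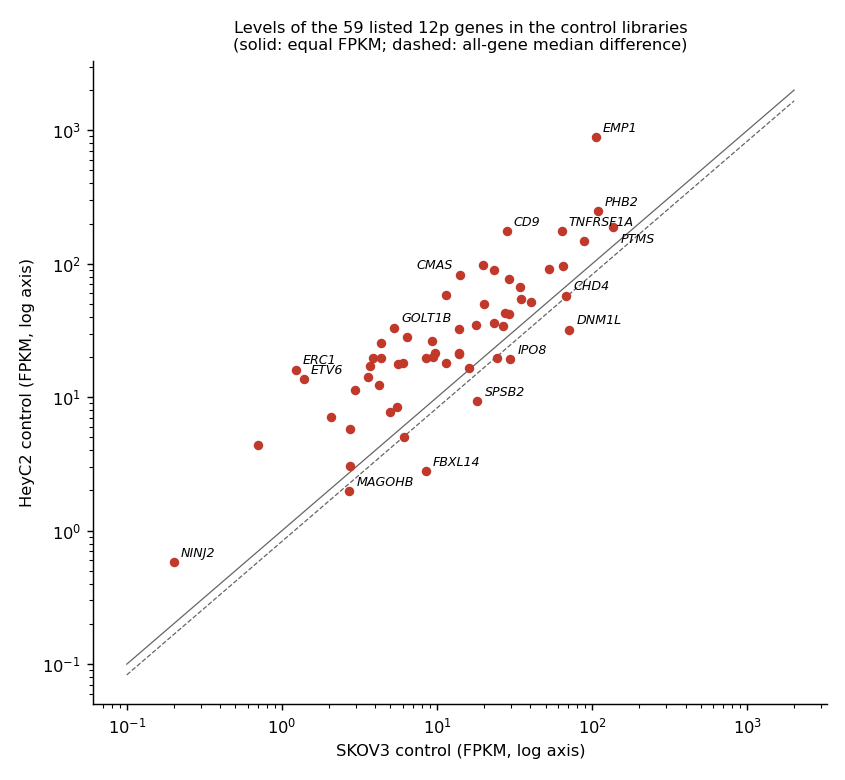
FPKM of the 59 listed genes in the SKOV3 control (x axis, log scale) and the HeyC2 control (y axis, log scale), 1 point per gene; the solid line marks equal FPKM and the dashed line the all-gene median difference. Most points lie above both lines, with EMP1 (890.5 against 105 FPKM) and CD9 (176 against 28.1 FPKM) among the farthest, and FBXL14, DNM1L and SPSB2 lie below.

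The largest of these differences between the control lines were those of EMP1 (3.34), ERC1 (3.20), ETV6 (2.89), CD9 (2.87) and CMAS (2.75). ERC1 stood at 16.0 against 1.23 FPKM, and ETV6 at 13.6 against 1.38. At the other end were FBXL14 (-1.05), DNM1L (-0.86), SPSB2 (-0.63), IPO8 (-0.32) and MAGOHB (-0.05). The metabolic enzymes were higher in HeyC2 in 5 of 5, with a median of 2.19, and the chromatin genes in 9 of 11, with a median of 1.39. The 4 ubiquitin genes were divided, with 2 higher and 2 lower. Between the TET1 libraries of the lines, the list had a median of 0.66 with 31 of 59 higher and 9 lower, where 28.8% of all genes were higher and 30.6% lower. EMP1 had the largest difference there as well, at 4.30, and STK38L the lowest, at -1.72. The other 12p genes had a median of -0.11 between the TET1 libraries.

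The listed genes were well expressed. In HeyC2 their median FPKM as deposited was 21.4 without and 50.3 with the TET1 plasmid, and in SKOV3 it was 13.8 and 17.8. The values with the TET1 plasmid hold the GAPDH scaling. Before it, the median log2 change of the listed genes was -0.73 in HeyC2 and 0.11 in SKOV3. Their median percentile among all genes of the tables was 86.9 and 82.1 in HeyC2 and 79.2 and 76.6 in SKOV3, against 49.8, 46.6, 42.5 and 41.1 in the same libraries for the other protein-coding genes of the arm. The list was chosen by changes in HeyC2, and all 59 passed the filter there, against 110 of the 266 other 12p genes. The percentiles of the other genes were taken without the filter, so the higher level of the list goes with its choice. The median number of fragments per gene was about 670 in the HeyC2 control and 349 in HeyC2 TET1. Under 100 fragments were 6 of the 59 in the HeyC2 control and 13 in the SKOV3 control. Within the list, the relative change in HeyC2 had a Spearman correlation of 0.16 with mean level, -0.30 with transcript length, 0.20 with GC content of the transcript and -0.13 with position, over 59 genes that share both libraries.

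Along the arm, the low values in HeyC2 TET1 reached from the telomere to about 30 Mb. For all expressed 12p genes in steps of 5 Mb from the telomere, the medians were -0.89, -0.65, -0.77, -0.79, -0.80 and -0.78, and the last step before the centromere, 30 to 35 Mb, had -0.22 over 16 genes. The first 3 steps of the long arm had 0.03, -0.07 and -0.07, over 3, 11 and 40 genes. The steps from 15 to 25 Mb rest on 7 and 11 genes. The listed genes had medians of -0.82, -0.65, -1.1, -0.59, -0.74, -0.83 and -0.33 in the same steps, with IPO8 and DNM1L alone in the last. In SKOV3 TET1 the 12p steps lay between -0.25 and 0.31. Between the control lines they were 1.44, 1.02, 1.08, 1.27 and 1.85 up to 25 Mb, then 0.49 and -0.55. The step next to the centromere, which was the closest to 0 in HeyC2 TET1, was thus the lowest of the arm between the controls, with the HeyC2 control library shared by both.

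**Figure D3:**
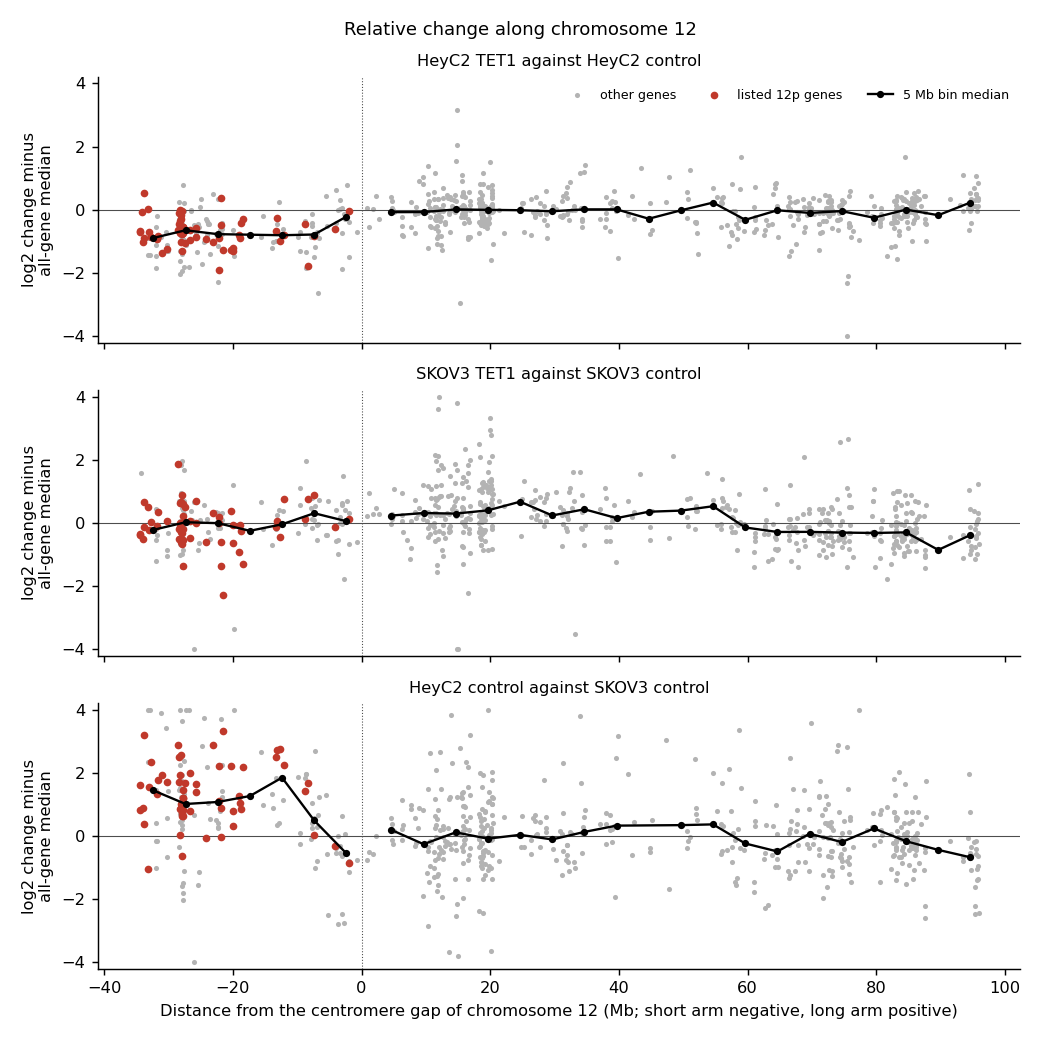
Relative log2 change (y axis) of each expressed gene of chromosome 12 against its distance from the centromere gap in Mb (x axis, short arm negative), in 3 comparisons; red points are the listed genes, grey points the others, black points and lines the medians of 5 Mb bins, and values beyond 4 are drawn at 4. Medians of bins with fewer than 5 genes are not drawn. In HeyC2 TET1 the bin medians of the short arm lie between -0.89 and -0.22 and those of the long arm between -0.32 and 0.23, and between the control lines the short-arm bins reach 1.85.

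Among the 41 chromosome arms with at least 20 expressed genes, 12p had the lowest median in HeyC2 TET1, at -0.71 over 169 genes. The next were 18q at -0.15 and 2q at -0.12. In SKOV3 TET1, 12p was at the all-gene median over 151 genes, and the arms ran from -0.44 for 4q to 0.53 for 17p. Between the control lines, 12p was the third highest at 0.88, after 17p at 1.0 and 7p at 0.94.

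**Figure D4:**
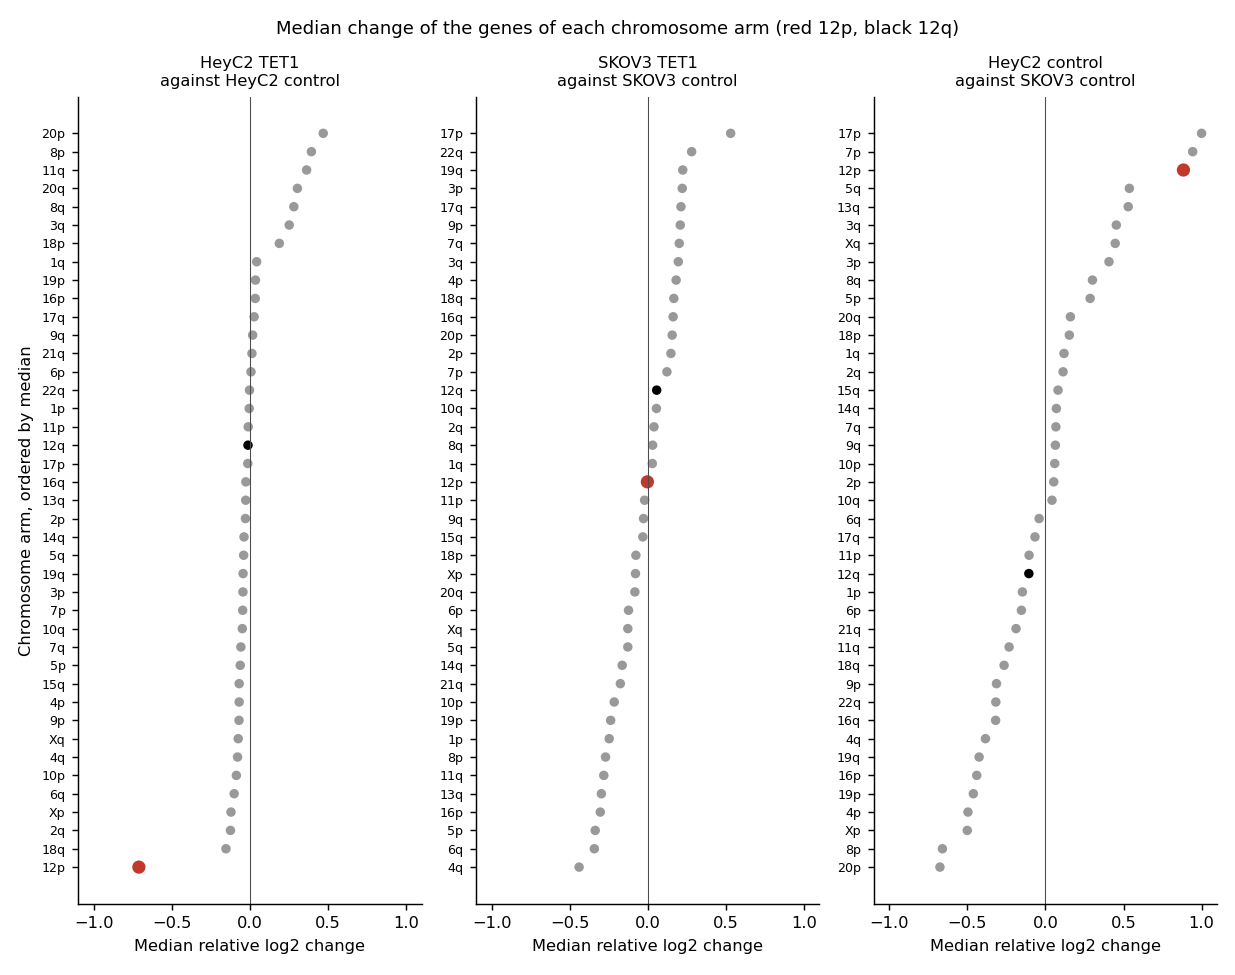
Median relative log2 change (x axis) of the genes of each of 41 chromosome arms (y axis, ordered by median) in HeyC2 TET1, SKOV3 TET1 and between the control lines; 12p is red and 12q black. 12p stands apart at -0.71 in HeyC2 TET1, lies at the all-gene median in SKOV3 TET1 and is the third from the top at 0.88 between the controls.

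Each of 41 listed genes was set beside a related gene on another chromosome arm, such as KDM5A with KDM5B or ITPR2 with ITPR3. In HeyC2 TET1 the 12p gene was the lower of the pair in 33 of the 34 pairs where both passed the filter, with a median difference of -0.68. The 12p genes of these pairs had a median of -0.75 and their relatives of 0.09. The HeyC2 TET1 changes that chose the list are used here again, so these counts are a description. The exception was SPSB2 with SPSB1. DUSP16 was at -1.91 beside DUSP10 at -0.44, ITPR2 at -1.78 beside ITPR3 at 0.35, and EPS8 at -0.79 beside EPS8L2 at 0.85. ERC1 and ERC2 were both at -0.89, with half-widths of 0.15 and 0.61. ERC2 was low, at 1.39 and 2.94 FPKM on about 64 and 38 fragments in the HeyC2 control and HeyC2 TET1. In SKOV3 TET1 the 12p gene was lower in 16 and higher in 20 of 36 pairs. Between the control lines it was higher in 28 of 35, with medians of 1.39 for the 12p genes and -0.18 for their relatives. CD9 was at 2.87 beside CD81 at -1.40, and EMP1 at 3.34 beside EMP2 at -0.79.

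**Figure D5:**
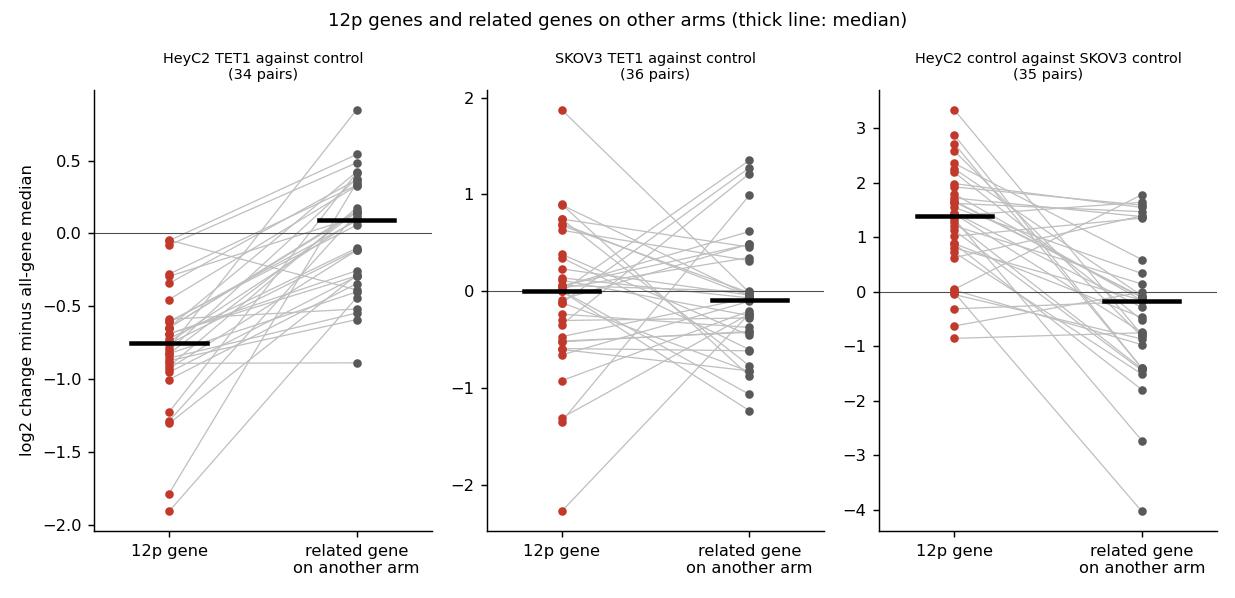
Relative log2 change (y axis) of 12p genes and their related genes on other arms, 1 line per pair and thick bars for the medians, in HeyC2 TET1 (34 pairs), SKOV3 TET1 (36) and between the control lines (35). The 12p medians are -0.75 and 1.39 in the outer panels, against 0.09 and -0.18 for the relatives.

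The genes that share a promoter window were close in HeyC2 TET1 in the case of CCDC77 and KDM5A (-0.67 and -0.69) and apart in the case of GOLT1B and RECQL (-0.27 and -0.68), with EMG1 and PHB2 between (-0.54 and -0.72). In SKOV3 TET1, CCDC77 and KDM5A were at -0.38 and -0.35, EMG1 and PHB2 at -1.35 and -0.53, and GOLT1B and RECQL at 0.05 and -0.14. CCDC77 and KDM5A also overlap on opposite strands. In all, 19 of the listed genes overlap another expressed gene of the tables, among them MLF2 with PTMS and PHC1 with M6PR. No source states that fragments were counted by strand, so those inside a stretch shared by overlapping genes may have been counted for either. The overlaps cover only part of these genes, as with KDM5A and CCDC77, which meet at their starts.

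Other known genes of the arm, given from a list that holds none of the 59, showed the same low values in HeyC2 TET1 for most of those expressed. CDKN1B was 33.6, 67.3, 22.8 and 30.8 FPKM, with a relative change of -0.63 in HeyC2 and -0.17 in SKOV3. GAPDH, held equal by the scaling, was at -1.61 and -0.59, and TPI1, also of glycolysis, at -1.41 and -0.42. The glucose transporter SLC2A3 was at -1.80 in HeyC2 and under the filter in SKOV3. The cell cycle factor FOXM1 was low in both lines, at -1.83 and -1.21, as was RAD51AP1 of DNA recombination, at -1.29 and -1.05. LRP6, a Wnt coreceptor, had -0.77 and 0.35, BCAT1 -0.86 and -0.33, ENO2 -0.45 and 0.86, LDHB -0.43 and 0.24, and TEAD4 -0.20 and -0.38. CCND2, SOX5 and NANOG were under the filter.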

How the data were processed

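RNA-seq was performed on HeyC2 and SKOV3 cells carrying a TET1 or an empty plasmid, with 1 library per condition. Per the labels, the authors aligned paired-end TruSeq reads (150 bases) to hg19 with Bowtie2 2.2.6 and quantified them with RSEM 1.2.17. The authors deposited FPKM, in a separate table for each line, and the gene annotation is not given in the sources used here. The authors also multiplied each TET1 library by a constant that sets GAPDH to its control value, a step read from the values, of which 100% of those below 40 FPKM lay on the resulting grid of 0.01 FPKM steps.

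From these FPKM, log2 ratios with a pseudocount of 1 were computed over genes with a mean of at least 1 FPKM in the libraries compared and were centred on their median. Genes at least 1.5-fold away were counted. Fragments were estimated from transcript length and a depth at which low values fall on whole fragments. Between 58.4% and 65.2% of the 353 to 437 genes used were within 0.15 of a whole fragment. The counting half-width (95%, from exact Clopper-Pearson intervals) covers counting error only and was computed without the pseudocount. Gene positions came from GENCODE on GRCh37, the build of hg19, with 23780 of 26506 symbols matched (89.72%), 1241 of them by an older symbol. Promoters came from a RefSeq table on GRCh38.p14, and where a gene had several entries the most 5′ one was used. ADIPOR2, TSPAN9, PTMS, ATN1, GPRC5A, WBP11, EPS8, RASSF8 and ITPR2 had none.

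The 59 genes, the related genes and the other arm genes were chosen with earlier results of these data known. All 59 are named by role, with values in all 4 libraries for the 10 lowest and 5 highest in HeyC2 TET1, the 5 at each end in SKOV3 TET1 and between the controls, and those under the filter. A few more are given as examples of their group. Some results for the other arm genes are not reported here. Alternatives were pseudocounts of 0.1 and 0.01, no filter, a mean of at least 5 FPKM, FPKM before the GAPDH scaling, rescaling to TPM, centring on genes outside chromosome 12 or on 12q, correction for GC content and length in 20 bins each, a 2-fold threshold and bins of 10 Mb. The calculation was tested on simulated data with counting noise only and no spread between cultures. The runs differed in scaling constant and used set depths, which were not those of the libraries. A change planted in 200 of 23780 genes was called in 200 in each run. A planted shift of -0.70 over the list was measured as -0.63, -0.67 and -0.65. The size of the change planted in the 200 genes and the levels of these genes are not given here. Their count therefore gives no sensitivity for genes of low level or for changes near the threshold for lower or higher. The scripts ran in Python 3.11.15 on numpy 2.4.6, pandas 2.3.3, scipy 1.17.1 and matplotlib 3.10.9.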

Additional observations from a re-analysis of the deposited data

Results flagged for a closer look

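The listed genes that were at least 1.5-fold below the all-gene median in HeyC2 TET1 and at least 1.5-fold above it in SKOV3 TET1 numbered 7 of 57 (12.3%), beside 2.31% of all genes. The list was chosen as low in HeyC2, and the share of its genes higher in SKOV3 (17.5%) was near that of all genes (20.6%). The difference between the lines was not tested, since each line has 1 library per condition. The relative log2 change was -0.65 in HeyC2 and 1.87 in SKOV3 for the tetraspanin CD9, and -0.76 and 0.90 for PTMS. For the kinase STK38L it was -0.83 and 0.89, and for the calcium channel ITPR2 it was -1.78 and 0.74. ETNK1, the ethanolamine kinase, had -0.80 and 0.74, and the Polycomb gene PHC1 had -0.59 and 0.70. C12orf57 had -0.66 and 0.60. PTMS and MLF2 overlap at their starts, and PHC1 and M6PR at their ends, each on opposite strands. Fragments inside these overlaps may have been counted for either gene.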

How the results depend on the processing

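The median of the listed genes in HeyC2 TET1 stayed negative under every alternative run, between -0.85 and -0.54, the latter with no filter on low values (against -0.69). Between the control lines it lay between 1.17 and 1.4, and in SKOV3 TET1 between -0.13 and 0.04. Over 10 settings, 51 of the 59 genes were below the all-gene median in HeyC2 in each, 2 were above it in each and 6 took either sign. With a 2-fold threshold the number lower was 13 in HeyC2 TET1 (against 40), 4 in SKOV3 TET1 (against 10), 1 between the controls (against 3) and 3 between the TET1 libraries (against 9), and the number higher in SKOV3 TET1 was 1 (against 10). The number higher in HeyC2 TET1, 0 as reported, was 2 with a pseudocount of 0.1 or 0.01, and 1 with no filter or after rescaling to TPM. The number lower in SKOV3 TET1 was 6 with no filter and 6 with a mean of at least 5 FPKM. The related genes in SKOV3 TET1 had a median of 0.018 with no filter and -0.0077 with a mean of at least 5 FPKM (against -0.07), and the other 12p genes between the controls had 0.34 with no filter (against 0.57). The cause of these shifts was not tested, apart from the 2-fold threshold, which counts fewer genes by its construction. Leaving out a replicate could not be run, as each condition has 1 library. For the same reason, no paired analysis was possible within a line. A fit with line as a block, which has 2 pairs, was not run. Depth limits single genes most: NINJ2 rests on about 5 fragments in HeyC2 TET1 and MAGOHB on about 19.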

Other observations

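A group of 7 chromosome arms lay above the all-gene median in HeyC2 TET1 by more than the other arms. The medians of the relative log2 change were 0.47 for 20p (107 genes), 0.39 for 8p (150 genes), 0.36 for 11q (484 genes), 0.30 for 20q, 0.28 for 8q, 0.25 for 3q and 0.19 for 18p, while the other arms apart from 12p lay between -0.15 and 0.04. Of the genes of 20p, 39.3% were at least 1.5-fold higher, beside 34.7% for 8p, 32.2% for 11q and 13.0% of all genes. Between the control lines, 20p (-0.68) and 8p (-0.66) had the lowest medians of the 41 arms and 11q had -0.23, while 18p (0.15), 20q (0.16), 8q (0.30) and 3q (0.45) were above the all-gene median. These comparisons share the HeyC2 control library.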
